A study of Mus musculus with 48 samples.

Results

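Mouse kidney slices that had been kept for 24 h with tunicamycin were compared directly with slices kept for 24 h with cyclosporin A. The comparison used the libraries whose labels name either drug at 24 h, which are 12 of the 48 in the series: 3 of the inbred strain C57BL/6J (C57) and 3 of DBA/2J (DBA) for each drug. All slices came from male mice and were treated outside the body, in a study of kidney toxicity that used the 2 parental strains of the BXD recombinant inbred panel. The labels state no dose and no vehicle, and they do not say whether slices with the same replicate number came from the same mouse, so that the p-values measure the spread between these samples, which may be technical. Libraries of the same 2 drugs at 6 h (6 a drug) were used to compare the times, and the 6 control libraries of 24 h are given as levels only and entered no test.

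Tunicamycin is an antibiotic that blocks the enzyme encoded by Dpagt1, which makes the first lipid-linked sugar of the N-glycan precursor. Without N-glycans many secreted and membrane proteins misfold in the endoplasmic reticulum (ER). The unfolded protein response (UPR) is the cell's answer: the sensors IRE1, ATF6 and PERK raise chaperones, degradation factors and, through ATF4, the transcription factor CHOP. Cyclosporin A binds cyclophilins, and the complex inhibits the phosphatase calcineurin, which keeps NFAT factors out of the nucleus. It is an immunosuppressant whose use is limited by damage to the kidney, where tubule cells are among those affected.

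The 12 libraries held between 13.6 and 23.6 M counts on genes, the lowest being replicate 3 of C57 with tunicamycin. Levels are given in CPM, a gene's count relative to the library's total count and not corrected for gene length. Genes of the mitochondrial genome took 3.11% to 7.34% of the counts, with more in C57 than in DBA and overlapping ranges for the drugs in each strain. The first principal component held 58% of the variance and separated the strains. The proximal tubule genes of a list of 21 summed to between 1320 and 8910 CPM, and of 44 markers of other kidney and immune cell types none was at 0 in any of the 12 libraries.

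At 24 h a part of the genes that fold, degrade and move proteins in the ER was higher in the slices with tunicamycin than in those with cyclosporin, over both strains. Genes called lower with tunicamycin included the interleukin 5 receptor gene Il5ra, the integrin activator gene Fermt1 and the replication gene Mcm5. Of 17231 genes tested over both strains, 225 passed an adjusted p of 0.05 in edgeR's quasi-likelihood test. Of these, 146 were higher with tunicamycin (0.847% of the genes tested) and 79 were lower (0.458%). The changes were mostly small, with a median absolute log2 fold change of 0.461 among the called genes and 34 genes beyond 1. The median over all genes tested was -0.00267, and 49.2% were positive. The 8 lists for the stress response and the secretory pathway held 183 tested genes, of which 54 were called higher, 0 were called lower and 156 had a positive fold change, with a median of 0.204. The number of calls depended on single libraries. It was 299 without replicate 3 of C57 with tunicamycin, and without each of 8 other libraries it fell to between 78 and 134. These 8 were replicates 1 and 2 of C57 with tunicamycin, replicates 1 and 2 of DBA with tunicamycin, all replicates of C57 with cyclosporin and replicate 2 of DBA with cyclosporin.

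**Figure D1:**
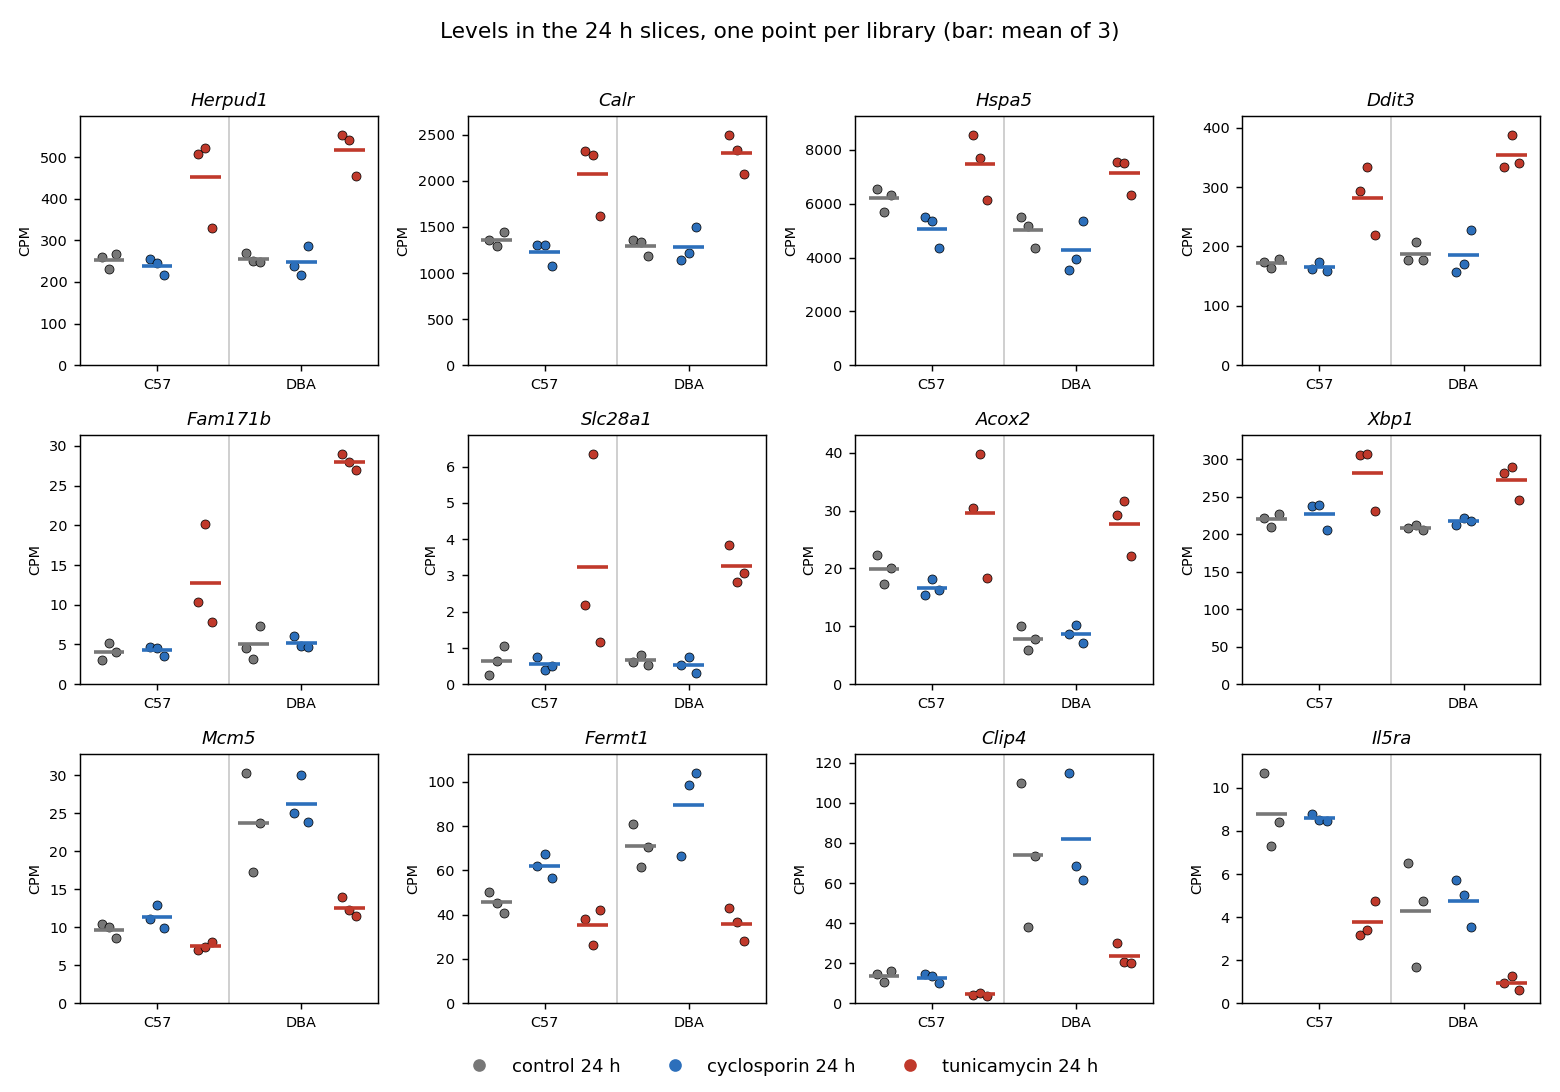
Levels of 12 genes in the 24 h slices, in CPM on a linear axis from 0, with 1 point per library and a bar at the mean of 3; grey is control, blue cyclosporin and red tunicamycin, with C57 left and DBA right of the grey line. For Herpud1 the tunicamycin libraries lie between 331 and 554 CPM and those of cyclosporin between 216 and 286 CPM, and for Mcm5 the tunicamycin libraries of each strain lie below those of cyclosporin.

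The chaperones and folding enzymes of the ER lumen were the group with the largest median difference among the lists fixed for this comparison. Of 25 genes tested, 18 were called higher with tunicamycin, 0 were called lower, and all 25 had a positive fold change. Their median log2 fold change was 0.664, with a range of 0.136 to 1.39. The 18 calls fell to 9 without replicate 3 of C57 with cyclosporin and numbered 20 without replicate 3 of C57 with tunicamycin.

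Hspa5 (ENSMUSG00000026864, chr2:34771970-34777547, plus strand, GRCm38 coordinates of GENCODE genes here and below) encodes BiP, the main chaperone of the ER lumen, which also holds the UPR sensors inactive. It stood at 8560, 7690 and 6130 CPM in the C57 slices with tunicamycin and at 7560, 7500 and 6340 CPM in those of DBA. With cyclosporin it stood at 5510, 5340 and 4370 CPM in C57 and 3550, 3940 and 5370 CPM in DBA. The drugs did not overlap in either strain, and over both strains Hspa5 was 1.59-fold higher with tunicamycin (log2 fold change 0.67 ± 0.11 SE, edgeR adjusted p = 0.0124, 6 libraries a drug). In the 24 h control slices its level ranged from 4370 to 6560 CPM, which overlapped the range of each drug.

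Calr (ENSMUSG00000003814, chr8:84841850-84846934, minus strand) encodes calreticulin, a lectin that holds newly made glycoproteins while they fold. Its levels were 2320, 2280 and 1620 CPM (C57) and 2500, 2340 and 2080 CPM (DBA) with tunicamycin, and 1300, 1300 and 1080 CPM (C57) and 1140, 1220 and 1500 CPM (DBA) with cyclosporin. Every tunicamycin library was above every cyclosporin library, whichever the strain. The difference was 1.77-fold (log2 0.82 ± 0.10 SE, edgeR adjusted p = 0.0034). Control slices ranged from 1180 to 1440 CPM, within the range of cyclosporin. Pdia3, the disulfide isomerase that works with calreticulin and calnexin, stood at 1050, 1000 and 739 CPM (C57) and 1170, 1080 and 955 CPM (DBA) with tunicamycin, against 598, 630 and 491 CPM (C57) and 563, 598 and 716 CPM (DBA) with cyclosporin. The difference of 0.76 ± 0.09 SE on the log2 scale passed in edgeR (adjusted p = 0.00373), and the drugs again did not overlap within either strain.

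Fkbp11 (ENSMUSG00000003355, chr15:98724366-98728198, minus strand), a prolyl isomerase of the ER, had the largest difference in the list. It was at 16.2, 17.4 and 9.09 CPM (C57) and 38.1, 29.6 and 25.8 CPM (DBA) with tunicamycin and at 6.45, 7.44 and 4.79 CPM (C57) and 12.1, 7.99 and 12.4 CPM (DBA) with cyclosporin, a 2.62-fold difference (log2 1.39 ± 0.18 SE, edgeR adjusted p = 0.00487). Both drugs showed higher levels in DBA than in C57. Other members called higher were the BiP co-chaperones Dnajc3 (log2 fold change 0.78 ± 0.10) and Dnajb11 (0.61 ± 0.09), the secreted stress factor Manf (0.78 ± 0.11), the BiP exchange factor Hyou1 (0.74 ± 0.11) and the disulfide isomerases Pdia4 (0.89 ± 0.17) and Pdia6 (0.66 ± 0.10). Creld2 (0.93 ± 0.16), Sdf2l1 (0.85 ± 0.14) and the lectin chaperone Canx (0.32 ± 0.05) were called too (edgeR, SE over 6 libraries a drug). Hsp90b1, the HSP90 form of the ER, differed by 0.80 ± 0.15 (edgeR adjusted p = 0.0235), but 2 other annotated genes overlap it on the same strand and reads of the 3 cannot be fully told apart. The calls of Creld2, Pdia4, Hsp90b1 and Sdf2l1 were lost in 8, 9, 8 and 5 of the 12 fits that left out 1 library. They were also lost without the filter on low counts, with edgeR adjusted p-values of 0.0811, 0.111, 0.117 and 0.0728. The 7 members that missed the threshold were P4hb, Sil1, Hspa13, Ero1a, Fkbp2, Cnpy2 and Txndc11, with P4hb, a disulfide isomerase, at 0.346 ± 0.111 (edgeR adjusted p = 0.191).

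**Figure D2:**
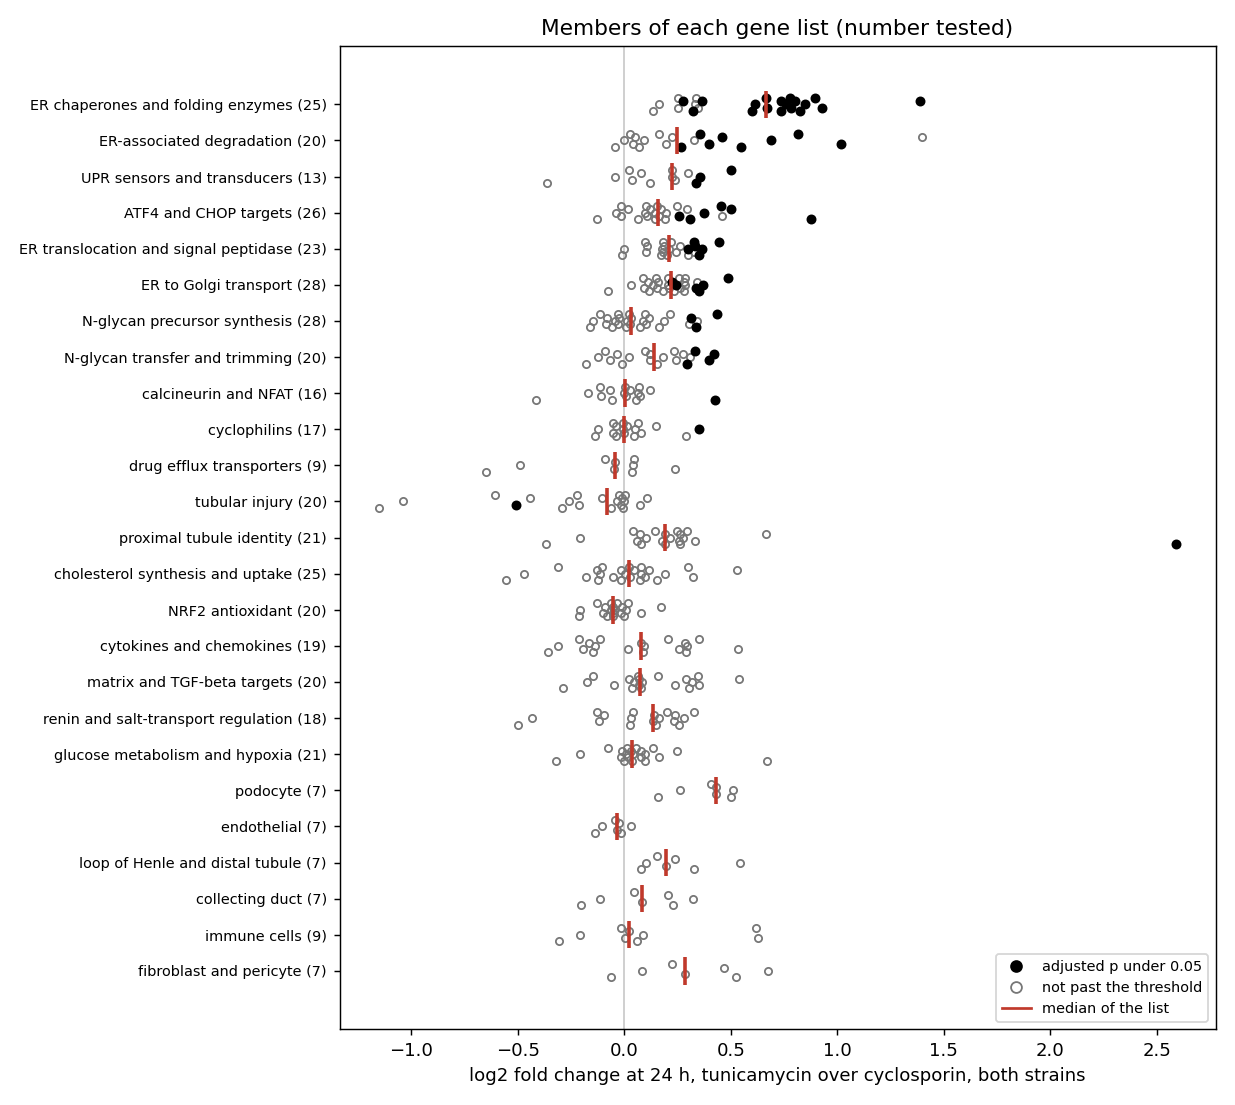
Log2 fold change of tunicamycin over cyclosporin at 24 h over both strains (x axis) for every tested member of 25 gene lists (rows, with the number tested); filled points passed an adjusted p of 0.05 and red bars are list medians. The median of the ER chaperone list lies at 0.664, and the medians of the calcineurin and cyclophilin lists lie at 0.00405 and -0.00232.

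Promoters of these genes are shown because the UPR acts on chaperone genes through short DNA elements. Textbook elements were searched on both strands from 250 bases before to 50 bases after each RefSeq transcription start (GRCm38.p6). They were the ER stress element ERSE (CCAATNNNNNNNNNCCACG), which ATF6 binds together with NF-Y, ERSE-II (ATTGGNCCACG), the core of the UPR element (TGACGTGG) and the ATF4-responsive CARE (TGATGNAA). The matches of ERSE in the chaperone genes with a promoter in the table and in Syvn1 and Derl3 are given below in the orientation of the element, with its fixed bases in capitals and the free bases in lower case.
Calr: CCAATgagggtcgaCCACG
Canx: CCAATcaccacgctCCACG
Creld2: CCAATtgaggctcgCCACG
Derl3: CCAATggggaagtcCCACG
Dnajc3: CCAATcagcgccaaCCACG
Ero1b: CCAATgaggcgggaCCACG
Hsp90b1: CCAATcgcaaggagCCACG
Hsp90b1: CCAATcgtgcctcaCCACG
Hspa5: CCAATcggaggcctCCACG
Pdia6: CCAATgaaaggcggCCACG
Syvn1: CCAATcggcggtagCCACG

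The element was found in 8 of the 21 chaperone genes that have a promoter in the table (38.1%), and Hsp90b1 held it in 2 places. All 8 of these genes were called higher with tunicamycin. It was present in 0.119% of all 32851 promoters and in 0.173% of the tested genes with a promoter. Among genes called higher, 10 of 114 with a promoter held it, and of the 53 called lower none did. A match describes letters only and is neither a bound site nor a cause of the difference, and other promoters may hold elements outside the window searched. In Hspa5 the match lies 65 to 47 bases before the start. The 250 bases before the start of Calr, at chr8:84846932-84847181 of GRCm38.p6 and read along its minus strand, are shown as the setting of such an element. The ERSE match there is in the reverse orientation, 162 to 144 bases before the start, with its fixed bases in capitals.
Calr: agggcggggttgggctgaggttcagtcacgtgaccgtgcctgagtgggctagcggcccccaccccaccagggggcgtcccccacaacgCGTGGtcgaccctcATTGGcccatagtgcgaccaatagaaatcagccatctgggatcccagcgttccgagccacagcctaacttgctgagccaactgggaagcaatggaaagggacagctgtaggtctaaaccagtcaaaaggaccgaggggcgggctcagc

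Genes of ER-associated degradation, which returns misfolded proteins to the cytosol for the proteasome, were in part higher as well. Of 20 tested, 8 were called higher and 0 lower, with a median log2 fold change of 0.246. The 8 calls fell to 2 without replicate 3 of C57 with cyclosporin. Herpud1 (ENSMUSG00000031770, chr8:94386438-94395377, plus strand), which works in the HRD1 degradation complex, had the smallest adjusted p. It stood at 507, 523 and 331 CPM (C57) and 554, 542 and 455 CPM (DBA) with tunicamycin, and at 256, 245 and 216 CPM (C57) and 238, 218 and 286 CPM (DBA) with cyclosporin. Every tunicamycin library was above every cyclosporin library, and the fold was 2.02 (log2 1.02 ± 0.11 SE, edgeR adjusted p = 0.00322). Control slices lay between 231 and 269 CPM, within the cyclosporin range.

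The sequence before the start of Herpud1 is shown because it held 2 different elements. The plus strand of chr8:94386179-94386428 (GRCm38.p6) has a CARE match in the reverse orientation, 112 to 105 bases before the start, and an ERSE-II match 52 to 42 bases before it, both with their fixed bases in capitals. ERSE-II was present in 0.0365% of all promoters and CARE in 3.97%.
Herpud1: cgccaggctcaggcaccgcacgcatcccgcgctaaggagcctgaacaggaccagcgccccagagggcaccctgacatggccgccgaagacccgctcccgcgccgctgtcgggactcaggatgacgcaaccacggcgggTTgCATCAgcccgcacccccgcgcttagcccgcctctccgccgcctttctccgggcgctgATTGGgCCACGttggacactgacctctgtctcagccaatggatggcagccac

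Syvn1 encodes the ubiquitin ligase HRD1 and Sel1l its membrane partner. Syvn1 stood at 184, 207 and 127 CPM (C57) and 211, 208 and 171 CPM (DBA) with tunicamycin, and at 111, 114 and 94.9 CPM (C57) and 89.9, 112 and 118 CPM (DBA) with cyclosporin (log2 fold change 0.82 ± 0.11 SE, edgeR adjusted p = 0.00563). Sel1l differed by 0.69 ± 0.11 (edgeR adjusted p = 0.0124), and Edem1, which takes part in the trimming of glycans on doomed proteins, by 0.55 ± 0.10 (edgeR adjusted p = 0.0235), a call lost in 8 of the 12 fits with 1 library left out. Without the filter on low counts neither passed in edgeR (adjusted p = 0.0505 for Sel1l and 0.058 for Edem1). For both of these genes the drugs did not overlap in either strain. Derl3, a channel component with an ERSE match, had a larger fold change that did not pass the threshold. It ranged from 51.4 to 125 CPM with tunicamycin and from 20 to 54.6 CPM with cyclosporin (log2 1.40 ± 0.28 SE, edgeR adjusted p = 0.0535), and it passed in DESeq2 (adjusted p = 0.000555).

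The sensors of the UPR and the transcription factors that they act on had few calls. Of 13 tested, 3 were called higher and 0 lower (median log2 fold change 0.223), and without replicate 1 of C57 with tunicamycin none was. Xbp1, whose mRNA is spliced by IRE1, stood at 305, 307 and 231 CPM (C57) and 282, 289 and 246 CPM (DBA) with tunicamycin, and at 237, 239 and 206 CPM (C57) and 212, 222 and 217 CPM (DBA) with cyclosporin. The drugs overlapped in C57 and not in DBA, and the log2 difference of 0.34 ± 0.07 SE passed in edgeR (adjusted p = 0.0343). Gene counts do not show how much of the Xbp1 mRNA was spliced. The sensor gene Atf6 differed by 0.36 ± 0.06 (edgeR adjusted p = 0.0151), with 2 other annotated genes overlapping it on its strand, and Wfs1, which encodes the ER membrane protein wolframin, by 0.50 ± 0.11 (edgeR adjusted p = 0.0437). Of the 12 fits with 1 library left out, Xbp1 lost its call in 10, Wfs1 in 9 and Atf6 in 3. The call of Wfs1 was also lost with RLE in place of TMM normalization, without the filter and without mitochondrial genes (edgeR adjusted p = 0.0518, 0.133 and 0.0556).

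On the branch of ATF4 and CHOP, 6 of 26 genes were called higher and 0 lower, with a median log2 fold change of 0.158. Between 1 and 6 were called when 1 library was left out, the fewest without replicate 1 of C57 with tunicamycin. Ddit3, the gene of CHOP itself (ENSMUSG00000025408, chr10:127290774-127296288, plus strand), stood at 294, 333 and 220 CPM (C57) and 333, 388 and 341 CPM (DBA) with tunicamycin, and at 162, 173 and 159 CPM (C57) and 157, 171 and 228 CPM (DBA) with cyclosporin. The drugs did not overlap within either strain, and the difference was 1.84-fold (log2 0.88 ± 0.11 SE, edgeR adjusted p = 0.00385). Control slices held 163 to 207 CPM. A second annotated gene overlaps Ddit3 and carries the same symbol, so some of its reads may be counted there. Chac1, which breaks down glutathione, stood at 78.2, 87.6 and 65.9 CPM (C57) and 98.3, 121 and 99.3 CPM (DBA) with tunicamycin, and at 51.4, 60.6 and 51.5 CPM (C57) and 89.2, 70.9 and 73.5 CPM (DBA) with cyclosporin (log2 fold change 0.50 ± 0.09 SE, edgeR adjusted p = 0.0172). In a single fit of the 24 libraries of both drugs and both times the adjusted p of Chac1 was 0.321, that of Trib3 0.106, that of Sesn2 0.107 and that of Ppp1r15a 0.0554.

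Trib3, a pseudokinase induced by CHOP, differed by 0.46 ± 0.09 (edgeR adjusted p = 0.0218) on the log2 scale in the fit of the 24 h libraries. Ppp1r15a, a subunit of the phosphatase that restarts translation, differed by 0.38 ± 0.07 (edgeR adjusted p = 0.0151), the amino acid transporter chain Slc3a2 by 0.31 ± 0.06 (edgeR adjusted p = 0.0275) and Sesn2, a leucine-sensing inhibitor of mTORC1, by 0.26 ± 0.05 (edgeR adjusted p = 0.0324). The call of Sesn2 was lost in 10 of the 12 fits with 1 library left out, that of Slc3a2 in 9, that of Trib3 in 5, that of Chac1 in 4 and that of Ppp1r15a in 3. Atf4 mRNA, whose product is controlled mainly at translation, was 0.17 ± 0.05 higher without passing the threshold (edgeR adjusted p = 0.123). The same held for the ATF4 target Asns, an asparagine synthetase, at 0.12 ± 0.08 (edgeR adjusted p = 0.663). The CARE element was present in 9 of the 23 genes of this list with a promoter (39.1%), of which Chac1 and Trib3 were called and the other 7 were not, and neither form of ERSE was found in any of them. The stretch before the start of Chac1, chr2:119350992-119351241 (GRCm38.p6, plus strand), holds a CARE match in the reverse orientation, 193 to 186 bases before the start, with its fixed bases in capitals.
Chac1: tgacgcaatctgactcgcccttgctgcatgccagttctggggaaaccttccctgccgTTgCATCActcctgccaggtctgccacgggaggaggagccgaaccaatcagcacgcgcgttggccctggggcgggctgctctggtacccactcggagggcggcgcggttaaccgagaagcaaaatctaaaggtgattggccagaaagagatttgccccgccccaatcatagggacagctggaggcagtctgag

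The machinery that brings proteins into the ER and carries them to the Golgi was called in part, with fold changes of at most 0.49 on the log2 scale. In the list of translocation and signal peptidase genes 6 of 23 were called higher and 0 lower (median 0.208). They were Ssr1, Ssr2 and Ssr3 of the translocon-associated complex, the channel subunit Sec61a1, Tram1 and the receptor subunit Srpr. Ssr3 stood at 526, 492 and 410 CPM (C57) and 561, 542 and 459 CPM (DBA) with tunicamycin against 373, 398 and 327 CPM (C57) and 365, 358 and 404 CPM (DBA) with cyclosporin, without overlap in either strain (log2 fold change 0.45 ± 0.07 SE, edgeR adjusted p = 0.0101). Of 28 genes of transport from the ER to the Golgi, 6 were called higher and 0 lower, with a median of 0.219. Sec24d, a cargo-binding coat subunit, differed by 0.488 ± 0.095 (edgeR adjusted p = 0.0285) and Mcfd2, a partner of the cargo receptor LMAN1, by 0.37 ± 0.06 (edgeR adjusted p = 0.00956). Sec24d and Sec61a1 each lost their call in 10 of the 12 fits with 1 library left out. Without replicate 1 of C57 with tunicamycin 1 gene of each list was called, and without replicate 3 of that group 11 and 12 were.

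N-glycan synthesis is the step that tunicamycin blocks. Dpagt1, the gene of the blocked enzyme, stood at 43.6, 40.6 and 31.4 CPM (C57) and 38.6, 43.3 and 35.2 CPM (DBA) with tunicamycin, and at 30.6, 35.9 and 29.8 CPM (C57) and 33.2, 42.3 and 32.7 CPM (DBA) with cyclosporin. The ranges overlapped in both strains, and the log2 difference of 0.21 had a 95% confidence interval from 0.01 to 0.42 and an edgeR adjusted p of 0.397. Of the 28 genes for the precursor 3 were called higher and 0 lower, with a median of 0.0306. Of these, 2 act in the supply of the sugar donor: Gfpt1, the rate-limiting enzyme of the hexosamine pathway (0.44 ± 0.09, edgeR adjusted p = 0.0294), and Gnpnat1, which acetylates glucosamine phosphate (0.34 ± 0.05, edgeR adjusted p = 0.0101). The third was the mannosyltransferase Alg2 (0.31 ± 0.07, edgeR adjusted p = 0.0392). In the list for transfer and trimming of the glycan 4 of 20 were called higher and 0 lower (median 0.137). These were the oligosaccharyltransferase subunits Magt1 (0.42 ± 0.06), Rpn1 (0.40 ± 0.07) and Ddost (0.33 ± 0.07) and the folding sensor Uggt1 (0.29 ± 0.06). Uggt1 was called in 1 of the 12 fits with a library left out, Alg2 and Ddost in 2 each, Gfpt1 in 5, Rpn1 in 9, and Magt1 and Gnpnat1 in all. Uggt1 also lost its call with RLE in place of TMM normalization (edgeR adjusted p = 0.0516) and without mitochondrial genes (0.0556).

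The genes of the proteins that cyclosporin acts on had few calls. Of 16 genes of calcineurin and NFAT, 1 was called higher with tunicamycin and 0 lower (median log2 fold change 0.00405). That gene was Rcan1, a calcineurin inhibitor which is itself a known target of NFAT. Its levels were 228, 287 and 237 CPM (C57) and 277, 312 and 276 CPM (DBA) with tunicamycin, and 182, 175 and 183 CPM (C57) and 277, 222 and 189 CPM (DBA) with cyclosporin. The drugs were apart in C57 and overlapped in DBA. It differed by 0.42 ± 0.09 SE on the log2 scale (edgeR adjusted p = 0.0474), and the call was lost in 10 of the 12 fits with 1 library left out. In control slices Rcan1 ranged from 201 to 270 CPM. Ppp3ca, the catalytic subunit of calcineurin, differed by 0.06 with a 95% confidence interval from -0.09 to 0.20.

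Among 17 cyclophilins 1 was called higher and 0 lower (median -0.00232). It was Ppib, the cyclophilin of the ER lumen, at 331, 320 and 251 CPM (C57) and 336, 312 and 293 CPM (DBA) with tunicamycin, and at 241, 259 and 215 CPM (C57) and 239, 254 and 263 CPM (DBA) with cyclosporin (log2 fold change 0.35 ± 0.07 SE, edgeR adjusted p = 0.0234). Its call was lost in 8 of the 12 fits with 1 library left out. Ppia, the abundant cytosolic cyclophilin that binds cyclosporin, ranged from 361 to 418 CPM with tunicamycin and from 383 to 492 CPM with cyclosporin, with a log2 difference of -0.04 (95% confidence interval -0.18 to 0.10). Of 9 drug efflux transporters 0 were called in edgeR (median -0.0447), and DESeq2 called 1. The P-glycoprotein gene Abcb1a stood at 5.76, 4.67 and 6.16 CPM (C57) and 12.1, 6.82 and 7.97 CPM (DBA) with tunicamycin and at 9.32, 7.63 and 6.95 CPM (C57) and 17.4, 12.8 and 16.7 CPM (DBA) with cyclosporin, a log2 difference of -0.65 ± 0.15 (edgeR adjusted p = 0.0602, DESeq2 adjusted p = 0.00543). Its copy Abcb1b differed by -0.49 ± 0.17 (edgeR adjusted p = 0.256), and reads of the pair may be shared.

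Several genes outside the secretory pathway had larger fold changes. The 12 genes with the largest increases were chosen by a rule: they passed the threshold, had a mean log2 CPM of at least 1 as edgeR computes it from the mean level with a prior count (1.03 for Slc28a1), and did not overlap between drugs in either strain, which 116 genes fulfilled. Non-overlap in both strains with higher tunicamycin levels was found in 268 genes (1.56% of those tested), and with lower levels in 239 (1.39%). Of the 225 called genes 189 were among them.

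Slc28a1 (ENSMUSG00000025726, chr7:81114799-81170416, plus strand), a sodium-coupled pyrimidine nucleoside transporter of the proximal tubule, came first. It stood at 2.19, 6.35 and 1.17 CPM (C57) and 3.84, 2.83 and 3.07 CPM (DBA) with tunicamycin, and at 0.751, 0.382 and 0.509 CPM (C57) and 0.523, 0.761 and 0.316 CPM (DBA) with cyclosporin. Every tunicamycin library was above every cyclosporin library, although levels were low, and the fold was 6.01 (log2 2.59 ± 0.39 SE, edgeR adjusted p = 0.00956). Control slices of 24 h held 0.249 to 1.05 CPM. The other 20 proximal tubule genes of the list were not called. Over all 21 the median was 0.193 (0.346 in C57 and 0.0285 in DBA), and 19 had a positive fold change.

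Hhipl1 (ENSMUSG00000021260, chr12:108306270-108330869, plus strand), a relative of the hedgehog-interacting protein, was at 5.94, 11.8 and 3.66 CPM (C57) and 2.51, 2.57 and 2.85 CPM (DBA) with tunicamycin and at 1.59, 1.84 and 0.89 CPM (C57) and 0.784, 0.476 and 0.685 CPM (DBA) with cyclosporin, a 4.61-fold difference (log2 2.2 ± 0.29 SE, edgeR adjusted p = 0.00449). Fam171b (ENSMUSG00000048388, chr2:83812636-83883486, plus strand) stood at 10.4, 20.2 and 7.77 CPM (C57) and 29, 28 and 27 CPM (DBA) with tunicamycin, and at 4.72, 4.58 and 3.6 CPM (C57) and 6.01, 4.76 and 4.64 CPM (DBA) with cyclosporin. The DBA libraries with tunicamycin lay close together and above all others, and the fold over both strains was 4.1 (log2 2.04 ± 0.20 SE, edgeR adjusted p = 0.00322). The remaining genes of the rule were Cox6a2, the muscle form of a cytochrome oxidase subunit (log2 fold change 1.96 ± 0.25), the secreted carbonic anhydrase Car6 (1.75 ± 0.23) and Bhlha15, which encodes the secretory cell factor MIST1 (1.58 ± 0.19). Below these were the actin binder Avil (1.41 ± 0.25), Fkbp11, the acyl-CoA thioesterase Acot5 (1.29 ± 0.19), the peroxisomal oxidase Acox2 (1.28 ± 0.17), the matrix protease Mmp19 (1.17 ± 0.23) and the DNA helicase Recql4 (1.10 ± 0.14). Mmp19 lost its call in 10 of the 12 fits with 1 library left out and Avil in 4.

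Acox2 shortens branched fatty acids and bile acid precursors in peroxisomes. It stood at 30.5, 39.8 and 18.4 CPM (C57) and 29.2, 31.7 and 22.1 CPM (DBA) with tunicamycin, against 15.4, 18.1 and 16.2 CPM (C57) and 8.63, 10.2 and 7.17 CPM (DBA) with cyclosporin. In a list of 9 thioesterases and peroxisomal oxidases written after these values were seen, Acox2, Acot5 and Acot2 (0.56 ± 0.12, edgeR adjusted p = 0.037) were called, and the median was 0.156. The call of Acot2 was lost in 9 of the 12 fits with 1 library left out and without the filter (edgeR adjusted p = 0.072). A further 3 genes with small adjusted p-values were also singled out after their values were seen. They were the calcium pump Atp2a2, which fills the ER with calcium (log2 fold change 0.55 ± 0.06, edgeR adjusted p = 0.00322), the ER membrane protein Serp1 (0.49 ± 0.08, edgeR adjusted p = 0.00956) and Selenok (0.36 ± 0.05, edgeR adjusted p = 0.00721).

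The same rule gave the 12 largest decreases among 59 genes that met it. Il5ra (ENSMUSG00000005364, chr6:106710357-106749037, minus strand), the interleukin 5 receptor chain, stood at 3.17, 3.39 and 4.76 CPM (C57) and 0.959, 1.28 and 0.592 CPM (DBA) with tunicamycin, and at 8.79, 8.52 and 8.48 CPM (C57) and 5.7, 5.04 and 3.53 CPM (DBA) with cyclosporin. The log2 difference of -1.73 ± 0.19 SE passed in edgeR (adjusted p = 0.00322), with no overlap between the drugs in either strain. Clip4 (ENSMUSG00000024059, chr17:71768473-71864273, plus strand), a microtubule-associated protein, was at 4.24, 5.28 and 3.52 CPM (C57) and 30, 20.5 and 20.1 CPM (DBA) with tunicamycin and at 14.7, 13.4 and 9.92 CPM (C57) and 115, 68.7 and 61.6 CPM (DBA) with cyclosporin (log2 -1.64 ± 0.19 SE, edgeR adjusted p = 0.00385). The DBA slices had more Clip4 than the C57 slices with each drug. The cytokine Il24 (-1.20 ± 0.20), the MAP kinase scaffold Ksr2 (-1.14 ± 0.17), the phosphatase Ptpn22 (-1.13 ± 0.17) and the spindle positioning protein Misp (-1.04 ± 0.16) were also in this group. Other annotated genes overlap Ksr2 and Ptpn22 on their strand, as they do Manf, Pdia4, Syvn1, Sesn2, Gnpnat1, Uggt1, Abcb1a, Atp2a2, Lamb3, Serpinb2 and Pole, so that their counts are less certain.

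Some of these genes act in cell adhesion. Fermt1, a kindlin that activates integrins, stood at 38.1, 26.2 and 42.1 CPM (C57) and 42.9, 36.5 and 28 CPM (DBA) with tunicamycin, and at 62.1, 67.5 and 56.5 CPM (C57) and 66.5, 98.4 and 104 CPM (DBA) with cyclosporin (log2 -1.04 ± 0.14 SE, edgeR adjusted p = 0.00721). Lamb3, a chain of the epithelial laminin, differed by -0.85 ± 0.13 (edgeR adjusted p = 0.00956).

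In a list of 9 genes of hemidesmosomes and their laminin, written after these values were seen, 3 were called lower and 0 higher, with a median of -0.265. The 3 were Lamb3 and the integrin chains Itga3 (-0.46 ± 0.08, edgeR adjusted p = 0.0162) and Itgb4 (-0.50 ± 0.11, edgeR adjusted p = 0.0422). Of the 12 fits with a library left out, Itgb4 was called in 1, and Itga3 lost its call in 3. Without replicate 1 of C57 with tunicamycin 1 gene of the list was called. Cldn1, a claudin of tight junctions, and Plau, the urokinase gene, were singled out in the same way. Cldn1 differed by -0.65 ± 0.08 (edgeR adjusted p = 0.0034). Plau stood at 763, 707 and 900 CPM (C57) and 598, 843 and 647 CPM (DBA) with tunicamycin, and at 1030, 1070 and 1110 CPM (C57) and 1260, 1640 and 1150 CPM (DBA) with cyclosporin (log2 -0.67 ± 0.11 SE, edgeR adjusted p = 0.0111).

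Others act in DNA replication and chromosome structure. Mcm5 (ENSMUSG00000005410, chr8:75109569-75128439, plus strand), a subunit of the helicase that opens DNA for replication, stood at 7.05, 7.42 and 8.06 CPM (C57) and 14, 12.2 and 11.5 CPM (DBA) with tunicamycin, and at 11.1, 12.9 and 9.88 CPM (C57) and 25, 30 and 23.8 CPM (DBA) with cyclosporin. Within each strain every tunicamycin library was below every cyclosporin library, a log2 difference of -0.80 ± 0.09 SE (edgeR adjusted p = 0.00322). The 6 subunits of the helicase, listed after these values were seen, all had negative fold changes (median -0.361, with -0.109 in C57 and -0.555 in DBA), and Mcm5 and Mcm4 (-0.48 ± 0.09, edgeR adjusted p = 0.025) were called. Smc2, a condensin subunit, differed by -0.68 ± 0.11 (edgeR adjusted p = 0.0115). Chosen after their values were seen, Uhrf1, which keeps DNA methylation through replication (-0.65 ± 0.12, edgeR adjusted p = 0.0178), the polymerase subunit Pole (-0.73 ± 0.14, edgeR adjusted p = 0.0286) and the cyclin Ccne1 (-1.06 ± 0.19, edgeR adjusted p = 0.0176) were called lower too. Mcm4, Pole, Uhrf1 and Ccne1 lost their calls in 8, 9, 5 and 4 of the 12 fits with 1 library left out. Recql4, a helicase of the same field, was called higher. In the single fit of both times the adjusted p in edgeR was 0.0663 for Recql4 and 0.0904 for Pole.

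Markers of tubular injury showed 1 call among 20 genes in edgeR and 5 in DESeq2 at 24 h, all lower with tunicamycin. Of the 20, 16 had a negative fold change. The tilt was alike at 6 h, when no gene was called, with 4 of the 20 positive and a median of -0.0654. With 1 library left out edgeR called 0 to 2 at 24 h. S100a6, a calcium-binding protein, differed by -0.51 ± 0.09 (edgeR adjusted p = 0.0148, and 0.0518 in the single fit of both times), and no member was called higher (median -0.0827). Havcr1, the gene of the injury marker KIM-1, stood at 98.1, 134 and 31.5 CPM (C57) and 381, 179 and 180 CPM (DBA) with tunicamycin, and at 275, 234 and 145 CPM (C57) and 607, 398 and 522 CPM (DBA) with cyclosporin. Within each strain its libraries did not overlap, yet they varied widely, and the difference of -1.15 ± 0.35 did not pass in edgeR (adjusted p = 0.191) while it did in DESeq2 (adjusted p = 0.0311). Control slices ranged from 209 to 888 CPM. The injury keratin Krt20 (-1.04 ± 0.28, edgeR adjusted p = 0.139) and the adhesion receptor Cd44 (-0.61 ± 0.13, edgeR adjusted p = 0.0521) did not pass either, whereas DESeq2 called both. Lcn2, the gene of the injury marker NGAL, differed by -0.04 with a 95% confidence interval from -0.58 to 0.51.

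In 7 further lists no gene was called in edgeR. They held 132 tested genes, of which 15 had an unadjusted p under 0.05 and 6 were called by DESeq2, and besides the efflux transporters they covered cholesterol synthesis, the NRF2 response, cytokines, matrix and TGF-beta targets, renin and salt transport, and glucose metabolism with hypoxia. Their medians ranged from -0.0529 to 0.136. The renin gene Ren1 varied widely among the DBA libraries of both drugs, at 883, 111 and 524 CPM with tunicamycin and 842, 124 and 398 CPM with cyclosporin, and did not differ by drug beyond that spread (edgeR adjusted p = 0.97).

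Of the 44 markers of other cell types 0 were called in edgeR, 5 had an unadjusted p under 0.05 and 1 was called by DESeq2. All 7 podocyte markers had positive fold changes, with a median of 0.431, which was 0.683 in DBA and 0.13 in C57. Their summed level in DBA ranged from 1030 to 1120 CPM with tunicamycin and from 470 to 986 CPM with cyclosporin, and in C57 from 1410 to 1830 and from 1400 to 1520 CPM. The lowest sum was that of replicate 1 of DBA with cyclosporin. Without that library 14 of the 25 chaperone genes and 7 of the 20 degradation genes were called higher. The median of 7 fibroblast and pericyte markers was 0.287 (0.611 in DBA and 0.0116 in C57). That of 7 loop of Henle and distal tubule markers was 0.198 (0.398 in DBA and -0.0358 in C57). The medians of endothelial, collecting duct and immune markers lay between -0.036 and 0.0833. At 6 h the median was 0.367 for the fibroblast and pericyte markers, 0.0138 for the podocyte markers and 0.0316 for the loop and distal tubule markers. In RNA from whole slices, fewer cells of a type and less RNA per cell cannot be told apart, and the part of these shifts in the other differences was not tested.

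The strains were also taken singly. In DBA 55 genes were called (0.319% of the genes tested), 24 higher and 31 lower with tunicamycin, and 52 of them were among the 225. In C57 edgeR called 0 genes (0%), with 822 at an unadjusted p under 0.05 and 47 called by DESeq2. The difference between the strains' responses was tested itself and gave 0 genes (0%) in edgeR and in DESeq2, with 434 at an unadjusted p under 0.05. Of the 225 called genes 182 had the larger absolute change in DBA. The same share was not counted over all genes tested, so it cannot be called particular to these genes. DBA also had more genes at an unadjusted p under 0.05 than C57 (1848 against 822 in edgeR). The mucin Muc4 and the plasminogen activator inhibitor gene Serpinb2, chosen after their values were seen, had large changes in DBA (-2.51 and -1.95) and small ones in C57 (-0.11 and -0.29), with unadjusted interaction p-values of 0.00413 and 0.00803 in edgeR that did not hold after adjustment over all genes. Over both strains neither Muc4 nor Serpinb2 passed the threshold (edgeR adjusted p = 0.092 and 0.061). The DBA calls depended on single libraries, with 0 to 87 when 1 was left out. There were 0 without replicate 2 or 3 of DBA with tunicamycin or replicate 2 of DBA with cyclosporin, and 87 without replicate 3 of DBA with cyclosporin. In C57 28 genes were called without replicate 3 with tunicamycin, and 0 without any other single library.

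**Figure D3:**
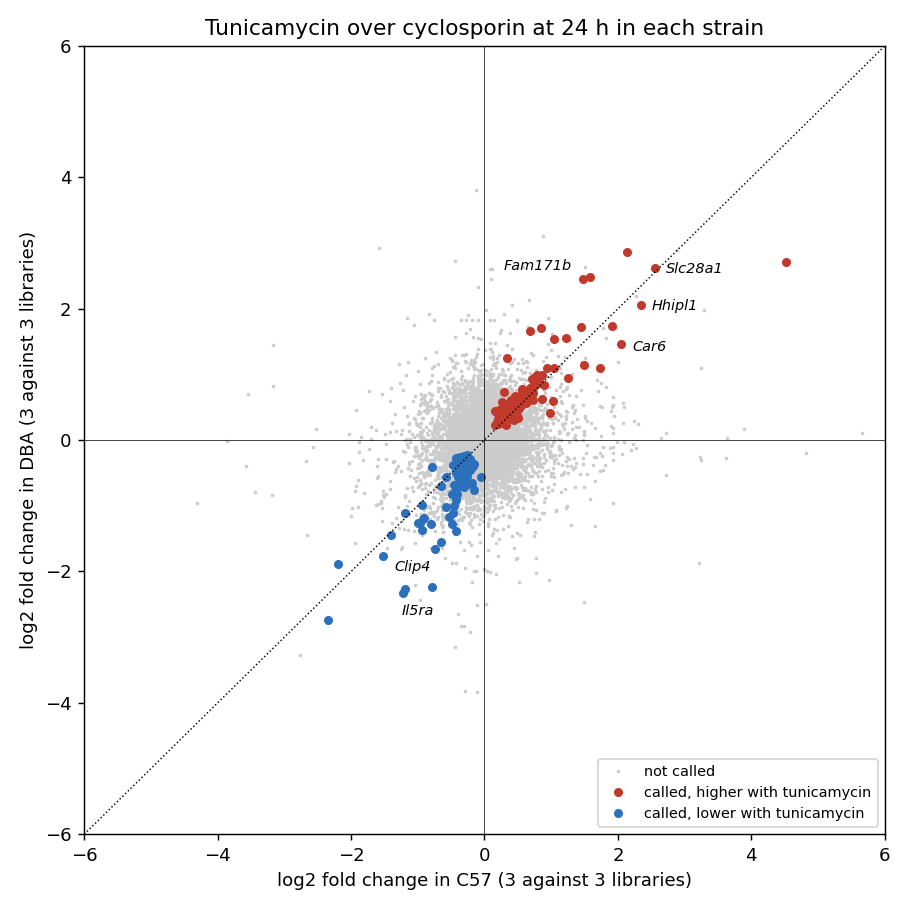
Log2 fold change of tunicamycin over cyclosporin at 24 h in C57 (x axis) and DBA (y axis), 1 point per gene tested; red and blue points are the 146 and 79 genes called over both strains, grey points the rest, and the dotted line marks equal change. Slc28a1, at 2.55 in C57 and 2.62 in DBA, lies near the line. Of the 225, 182 have the larger absolute change in DBA, a share not counted over all genes tested.

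At 6 h the drugs could not be told apart by single genes. Of 16600 genes tested 0 were called in edgeR (0%), with 380 at an unadjusted p under 0.05 and 0 called by DESeq2. The median log2 fold change of the ER chaperones was -0.0187 at 6 h. The change of the drug difference from 6 to 24 h was tested in a fit of 24 libraries, which called 26 of 17930 genes (0.145%), 22 with a more positive difference at 24 h and 4 with a more negative one. All 26 were among the 225, but both tests used the same 24 h libraries, so the overlap is no separate evidence. Of the 26, 13 belonged to the lists of the stress response and the secretory pathway. The log2 fold changes of the 26 at 6 h lay between -0.22 and 0.31.

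Calr ranged from 770 to 927 CPM with tunicamycin and from 791 to 904 CPM with cyclosporin at 6 h, and its drug difference changed by 0.88 on the log2 scale (edgeR adjusted p = 0.00332). Herpud1 ranged from 210 to 341 CPM and from 219 to 287 CPM at 6 h, and its difference changed by 1.05 (edgeR adjusted p = 0.00332). Its range with cyclosporin was nearly the same at both times, and that with tunicamycin overlapped between the times only from 331 to 341 CPM. Slc28a1 showed another course. Its 6 h levels were 2 to 6.64 CPM with tunicamycin and 2.46 to 7.29 CPM with cyclosporin, so that 5 of the 6 tunicamycin libraries of 24 h lay within the 6 h range of that drug and the 24 h cyclosporin slices, like the 24 h controls, were below it (change 2.75, edgeR adjusted p = 0.0368). The summed level of the 21 proximal tubule genes, of which Slc28a1 is 1, was also lower at 24 h with both drugs. In the drug libraries it was 6040 to 20100 CPM at 6 h and 1320 to 4200 CPM at 24 h in C57, and 17200 to 28400 CPM and 3790 to 8910 CPM in DBA, while the 24 h controls held 1750 to 2360 CPM (C57) and 4370 to 8160 CPM (DBA). At 24 h the ranges of the drugs overlapped in each strain, and the part of these levels in the course of Slc28a1 was not tested. Among the 4 with a more negative difference were Mcm5 (-0.98, edgeR adjusted p = 0.00643) and Fermt1 (-1.06, edgeR adjusted p = 0.00971). The number of such genes ranged from 9 to 82 when 1 library was left out, with 82 without replicate 3 of C57 with tunicamycin at 24 h and 9 without replicate 3 of C57 with cyclosporin at 24 h, replicate 2 of DBA with tunicamycin at 24 h or replicate 3 of DBA with tunicamycin at 6 h.

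**Figure D4:**
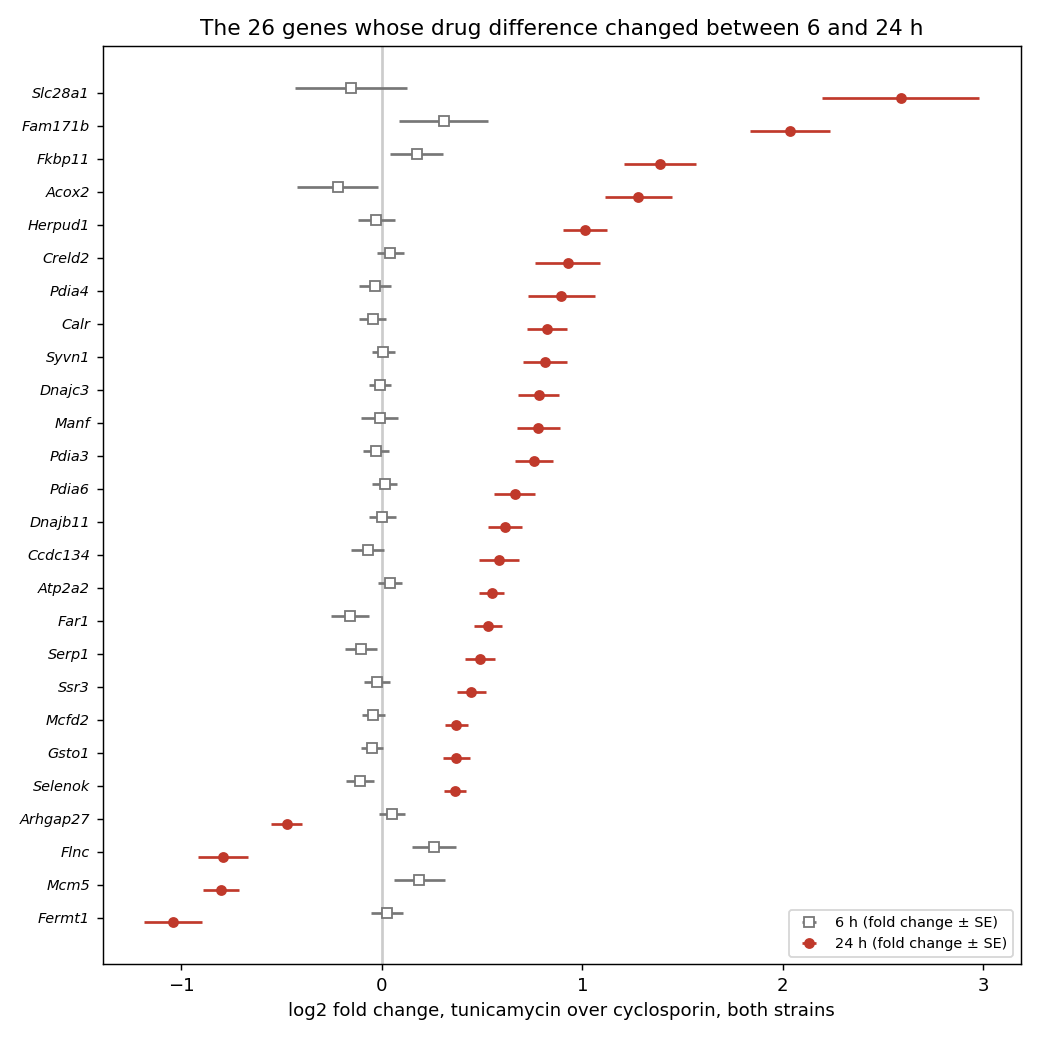
Log2 fold change of tunicamycin over cyclosporin over both strains (x axis) at 6 h (open squares) and 24 h (filled circles) for the 26 genes whose drug difference changed between the times, with bars of 1 SE and 6 libraries a drug. All 6 h values lie between -0.22 and 0.31, while at 24 h the 22 upper genes lie at 0.36 or above and the 4 lowest at -0.47 or below.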

How the data were processed

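Polyadenylated RNA of kidney slices was sequenced from stranded libraries, per the labels. The authors deposited raw counts per gene for each library, with no normalization. Per the submitters' processing notes the tools were bcl2fastq 2.20.0, FastQC 0.11.8, STAR 2.7.9a and featureCounts 1.5.1 with GRCm38. The strand setting and annotation release are not given in the sources used here, so reads of overlapping and antisense genes may be mixed. Of 55487 gene rows 55141 were matched to a symbol.

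From the counts, CPM were computed by library total for the printed levels. The 12 libraries of the 24 h comparison were fitted in R 4.3.3 with edgeR 4.0.16 (limma 3.58.1 loaded with it) as 4 groups of strain and drug, with TMM factors, the edgeR filter on low counts (17231 genes left), robust quasi-likelihood dispersion and 8 residual degrees of freedom. Contrasts were the mean drug difference over both strains, each strain alone and their difference. Separate fits took the 6 h libraries and the 24 libraries of both times. P-values were Benjamini-Hochberg adjusted over all genes tested, with a threshold of 0.05. The code was tested on simulated data. DESeq2 1.42.0, other normalization and filters, removal of mitochondrial genes, a replicate block, other models and leaving out each library were tried.

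Named genes were the 12 with the largest change in each direction among those called, with an edgeR mean log2 CPM of at least 1 and no overlap of the drugs in either strain, plus members of the lists. Genes and lists, among them 4 lists added later, were chosen with earlier results of these data known. Promoter sequences came from RefSeq (GRCm38.p6) and were matched by symbol. Some genes that met the rule and 1 of the added lists are not reported here.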

Additional observations from a re-analysis of the deposited data

Results flagged for a closer look

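The difference between tunicamycin and cyclosporin changed from 6 to 24 h in 26 genes by the test of that change itself (edgeR, adjusted p under 0.05, 6 libraries for each drug and time). The following values are the log2 difference between the drugs at 24 h minus that at 6 h. In the list of ER chaperones they were 1.22 for Fkbp11, 0.93 for Pdia4, 0.89 for Creld2, 0.88 for Calr, 0.8 for each of Pdia3, Dnajc3 and Manf, 0.66 for Pdia6 and 0.62 for Dnajb11. Other members of the secretory lists were Herpud1 at 1.05, Syvn1 at 0.81, Ssr3 at 0.47 and Mcfd2 at 0.42. Outside these lists the values were 2.75 for Slc28a1, 1.73 for Fam171b, 1.51 for Acox2, 0.69 for Far1, 0.66 for Ccdc134, 0.6 for Serp1, 0.51 for Atp2a2, 0.48 for Selenok and 0.43 for Gsto1. The difference became more negative for Fermt1 at -1.06, Flnc at -1.05, Mcm5 at -0.98 and Arhgap27 at -0.52.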

How the results depend on the processing

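The 225 calls over both strains became 519 with DESeq2 and 468 with the replicate block, and between 78 and 299 when each library was left out in turn. DESeq2 called all 225, and the fit with the block shared 207 of them. In C57, where 0 genes were called, no filter on low counts gave 12, DESeq2 47, the replicate block 3 and a single fit of both times 14, with 0 to 28 when a library was left out. In DBA the 55 calls became 107 without the filter, 311 with DESeq2, 282 with the replicate block and 103 in the fit of both times, with 0 to 87 when a library was left out. At 6 h the replicate block gave 1 call. The 26 genes of the change with time became 99 with DESeq2 and 148 with the replicate block, and 9 to 82 with a library left out. The cause was not tested. Same-numbered libraries of the drugs correlated over 0.1 in 3 of 6 pairs and best with their own number in 4 of 6. These correlations cannot decide whether same-numbered slices came from the same mouse. As the labels give no pairing, the main fits were unpaired, and the replicate block is given as an alternative. With the replicate block the edgeR adjusted p was 0.0514 for Pdia4, 0.0591 for Fermt1, 0.06 for Hsp90b1 and 0.0759 for Rcan1. Under alternatives that kept all libraries, single gene values kept direction and side of the threshold in 636 cases, lost it in 25, passed it in 18 and reversed in 0. With a library left out, 3 uncalled genes changed sign. Ppia ranged from -0.076 to 0.0249 on the log2 scale (positive without DBA cyclosporin 1). Ren1 ranged from -0.183 to 0.552 (negative without DBA tunicamycin 1 or DBA cyclosporin 2). Lcn2 ranged from -0.164 to 0.0884 (positive without C57 tunicamycin 2, C57 cyclosporin 2, DBA tunicamycin 3, or DBA cyclosporin 2 or 3). Of the 24 genes named by the rule 21 kept their call in all 12 such fits. The rule took large changes without overlap, so this share does not stand for all calls. Among the 81 called genes followed through these fits 43 kept their call in all. Genes near 1 CPM rest on few reads and are the least precise.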
